A study of Homo sapiens with 15 samples.

Results

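A pair of progestins, medroxyprogesterone acetate (MPA) and progesterone (PROG), was compared as a class with dihydrotestosterone (DHT) and dexamethasone (DEX) in ZR-75-1 cells. ZR-75-1 is an established line of human breast cancer whose growth depends on the estrogen receptor. All 12 arrays titled with a compound, of 15 arrays in the series, entered the comparison: 6 progestin arrays (3 MPA, 3 PROG) against 6 arrays of the other steroids (3 DHT, 3 DEX). The mean of the MPA and PROG group means was set against the mean of the DHT and DEX group means over 14841 of 34878 probe sets, those paired with 1 gene symbol. Every compound was given at 10 nM for 6 h, in regular medium with fetal bovine serum. The remaining 3 arrays, of cells given 0.1% ethanol as vehicle and also labelled untreated, serve only as a reference level and entered no test. The series asks how the expression profile of MPA relates to those of PROG, DHT and DEX, and the labels give only these abbreviations, read here in their usual sense. Whether each array had its own culture of cells is not stated, and the tests therefore weigh a difference against the spread among these arrays, part or all of which may be technical.

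Progestins, androgens and glucocorticoids act through closely related nuclear receptors that, on binding their ligand, recognise nearly the same DNA element and recruit co-regulators to nearby genes. Progesterone and its receptor govern side branching and alveolar development in the mammary gland. MPA is a synthetic derivative of progesterone with an added methyl and an added acetoxy group, and is known to bind the receptors of the other steroid classes too. DHT is the most potent natural androgen and DEX a synthetic, fluorinated glucocorticoid. Because these receptors share many target genes, a comparison among treated cells asks which genes respond to one class more than to others, and no untreated control enters it.

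Values are log2 expression levels as deposited, and differences are given on this scale. Array medians lay between 3.69 and 3.73, and arrays correlated across probe sets with r of 0.9971 to 0.9978 within a group and 0.9953 to 0.9977 between groups. Luminal epithelial markers averaged 9.09 to 9.21 on each of the 12 arrays. Basal epithelial markers averaged 4.16 to 4.37, fibroblast markers 3.42 to 3.57, and blood and endothelial markers 4.12 to 4.32. These lists hold 12, 10 and 12 markers, of which only 6, 3 and 6 were measured. Under the array medians were 4 basal markers (VIM, KRT5, KRT14 and MYLK) and 2 fibroblast markers (THY1 and DCN). So were 4 blood and endothelial markers (VWF, CLDN5, KDR and CD14). The other measured members lay above, among them EGFR of the basal list, with a mean of 7.30. The level of a gene in bulk RNA does not tell a change per cell from a change in which cells were present. A level under the array medians is called dim here, and little can be read from it. Differences below are progestin pool minus DHT and DEX pool, ± the standard error (SE) of limma's fit of the 4 groups (n = 3 arrays each). A probe set was called at a limma adjusted p (Benjamini-Hochberg, over all 14841) under 0.05.

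The progestin pool differed from the DHT and DEX pool at 559 probe sets, 3.77% of those tested. Of these 402 (2.71%) were higher with progestins and 157 (1.06%) lower, while the median difference over all probe sets was -0.005. The split was wider among large differences: of 54 called probe sets that differed by at least 1.5-fold (0.364%), 52 were higher and 2 lower. At 325 of the called probe sets (2.19%) all 6 progestin arrays lay on 1 side of all 6 other arrays, 271 of them higher and 54 lower. Of the higher set 385 are protein-coding, 7 are long non-coding RNAs and 3 are microRNA genes. Its median difference was 0.29, that of the lower set -0.21.

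The genes with the largest higher levels, together with some members of gene lists, are described by what their products do, beginning with regulators of transcription. ZBTB7C, a zinc finger repressor with a BTB domain, had levels of 6.81, 7.03 and 7.19 with MPA and 6.64, 7.10 and 6.62 with PROG. Its levels were 4.98, 5.08 and 5.12 with DHT and 4.79, 4.93 and 4.81 with DEX, close to the vehicle levels of 4.62 to 4.88. The pools do not overlap, and the difference of 1.95 ± 0.087, a 3.86-fold higher level, was the largest of any named probe set (95% interval 1.76 to 2.14, limma adjusted p = 1.42e-07). CSRNP1, a nuclear protein with transcriptional activity, lay at 6.44 to 6.61 with MPA, 6.17 to 6.32 with PROG, 5.36 to 5.56 with DHT and 5.11 to 5.19 with DEX, a difference of 1.09 ± 0.046. TFCP2L1, a transcription factor of epithelial ducts, differed by 0.92 ± 0.038. Its DEX arrays, at 5.95 to 5.98, lay above its DHT arrays, at 5.33 to 5.43, and both below all progestin arrays. SP6, a zinc finger factor of the SP family chosen after its values were seen, differed by 0.93 ± 0.057. STAT5A, the signal transducer of prolactin in the mammary gland, was higher by 0.94 ± 0.134 (limma adjusted p = 0.00125), with a wide spread among its progestin arrays, 4.74 to 5.45, and means of 4.12 ± 0.214 (SD, n = 3) with DHT and 4.31 ± 0.185 with DEX.

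Some of the genes described act in lipid metabolism. ACSL1, the enzyme that activates long-chain fatty acids by joining them to coenzyme A, was measured at 9.20, 9.17 and 9.14 with MPA, 8.84, 8.86 and 8.72 with PROG, 7.67, 7.81 and 7.74 with DHT, and 7.72, 7.75 and 7.74 with DEX. The vehicle arrays lay at 7.57 to 7.68, a range that includes the lowest DHT array, and their mean of 7.63 was just under the DHT and DEX means. Its difference of 1.25 ± 0.035 had the smallest adjusted p of the genes described here (limma adjusted p = 4.52e-09), and the DHT and DEX arrays of this gene could not be told apart (DHT minus DEX 0.003, 95% interval -0.11 to 0.11). ACOT6, an acyl-CoA thioesterase, was higher by 1.41 ± 0.068, with 5.26 to 5.56 over the progestin arrays and 3.79 to 4.18 over the others. SGPP2, a phosphatase that removes the phosphate of sphingosine 1-phosphate, was higher by 1.41 ± 0.082. It lay at 6.92 to 7.17 with MPA, 6.32 to 6.56 with PROG, 5.25 to 5.58 with DHT and 4.97 to 5.36 with DEX. HILPDA, a protein of lipid droplets chosen after its values were seen, was higher by 0.85 ± 0.044. In its case DEX (7.26 to 7.43) also exceeded DHT (6.90 to 6.99).

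Others of the 15 largest include genes of membrane proteins. EMP1, an epithelial membrane protein, lay at 7.28 to 7.50 in the 6 progestin arrays, 6.37 to 6.55 with DEX and 5.73 to 6.04 with DHT, against 5.40 to 5.66 with vehicle, so that DEX sat between (difference 1.22 ± 0.060). UNC5B, a netrin receptor, was at 8.12 to 8.20 with MPA, 7.18 to 7.57 with PROG and 6.44 to 6.77 with the other compounds, a difference of 1.14 ± 0.061. F2R, the thrombin receptor, differed by 1.03 ± 0.057, with 6.53 to 6.93 against 5.58 to 5.95. The myelin and epithelial proteolipid PLLP (1.01 ± 0.058), the membrane protein TMEM63C (0.98 ± 0.036) and the leucine-rich repeat protein LRRC31 (1.04 ± 0.061) were separated in the same way. LRRC31 had means of 6.85 ± 0.168 (SD, n = 3) with DHT and 6.81 ± 0.134 with DEX, within its vehicle levels of 6.78 to 6.94. GREB1L, a relative of the estrogen-response gene GREB1, was higher by 1.33 ± 0.065. GREB1 itself was higher by 0.40 ± 0.033, at 10.14 to 10.38 against 9.75 to 9.89.

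P3H2, a hydroxylase of collagen prolines, was higher by 1.19 ± 0.10, but its DHT and DEX levels were dim, and against the array medians the progestin level was 1.85-fold higher. NDRG1, a stress-responsive gene, was higher by 1.10 ± 0.128 and the ankyrin repeat gene ANKRD22 by 0.94 ± 0.036. These complete the 15 genes with the largest higher levels among those whose pools do not overlap: all 15 were called in each of the 4 single comparisons of a progestin with DHT or DEX, and in 13 of them the vehicle mean lay below all 4 compound means. TFCP2L1 and STAT5A, named above because they belong to gene lists, are not among the 15, and STAT5A was not called in all 4 comparisons. FKBP5, a co-chaperone of steroid receptors, lay at 6.18 to 6.52 with MPA, 6.09 to 6.12 with PROG, 5.10 to 5.24 with DHT and 5.50 to 5.51 with DEX, with vehicle at 3.83 to 4.48. The difference between pools was 0.91 ± 0.056, and every compound lay above vehicle. HSD11B2, which inactivates cortisol, had the same order, MPA 8.93 to 9.04, PROG 8.47 to 8.72, DEX 8.17 to 8.25, DHT 7.87 to 7.96 and vehicle 7.18 to 7.38, and differed by 0.72 ± 0.043.

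**Figure D1:**
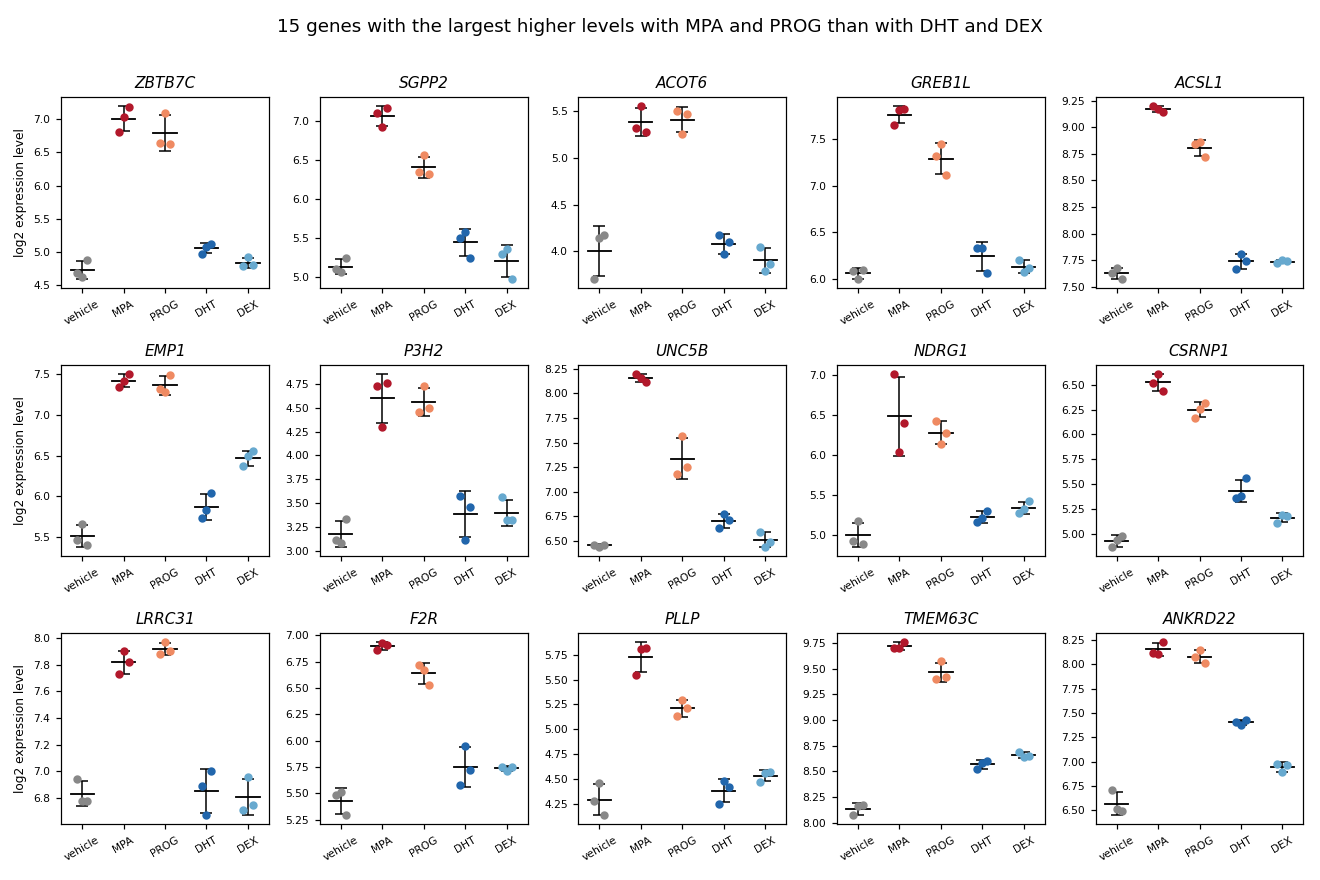
Log2 expression level on each array (dots; 3 per group), with group mean (horizontal bar) and SD (error bar), for the 15 genes with the largest higher levels in the MPA and PROG arrays than in the DHT and DEX arrays; vehicle is shown for reference and each panel has its own axis. The genes were chosen among those whose pools do not overlap, so that in every panel the 6 progestin arrays lie above the 6 DHT and DEX arrays. EMP1 shows DEX between DHT and the progestins.

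Promoter windows from RefSeq (GRCh38.p14, 300 bases, from 250 before to 50 after a listed start) were searched on both strands for the half-site of the element that these receptors share, AGAACA or its reverse complement TGTTCT. The windows of genes called higher held it in 10.94% of 512 cases and those of genes called lower in 8.76% of 194, against 11.1% of 14780 windows of all genes measured and 14.79% of all 35116 windows. The 15-letter palindrome built of both, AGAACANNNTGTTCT, occurred in 0 windows of the called genes and in 1 of all windows. Of the 15 genes with the largest higher levels 12 have a listed window and 3 hold a half-site, SGPP2, CSRNP1 and ACSL1, and of the 15 lowest only ESR1 does. The 250 bases before the start of these 4 windows are shown because they place the matched letters, in capitals, near genes the comparison turns on. SGPP2 is at chr2:222423738-222423987 on the plus strand, CSRNP1 at chr3:39154642-39154891 on the minus strand, ACSL1 at chr4:184812252-184812501 on the minus strand and ESR1 at chr6:151656422-151656671 on the plus strand, each 1 of several windows of its gene.
SGPP2: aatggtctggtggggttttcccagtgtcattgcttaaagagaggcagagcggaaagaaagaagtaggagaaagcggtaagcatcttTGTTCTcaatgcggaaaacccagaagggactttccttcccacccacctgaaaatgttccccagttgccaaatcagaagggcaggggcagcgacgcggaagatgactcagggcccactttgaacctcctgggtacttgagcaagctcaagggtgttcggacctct
CSRNP1: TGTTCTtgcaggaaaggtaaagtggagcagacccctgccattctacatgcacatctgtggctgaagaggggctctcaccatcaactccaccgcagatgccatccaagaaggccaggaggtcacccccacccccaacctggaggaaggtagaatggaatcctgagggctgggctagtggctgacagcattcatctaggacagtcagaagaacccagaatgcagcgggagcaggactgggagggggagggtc
ACSL1: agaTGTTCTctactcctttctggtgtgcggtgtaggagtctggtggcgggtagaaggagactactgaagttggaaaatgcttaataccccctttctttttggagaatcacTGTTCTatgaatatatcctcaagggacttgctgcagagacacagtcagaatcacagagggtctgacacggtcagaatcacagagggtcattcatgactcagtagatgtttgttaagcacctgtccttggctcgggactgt
ESR1: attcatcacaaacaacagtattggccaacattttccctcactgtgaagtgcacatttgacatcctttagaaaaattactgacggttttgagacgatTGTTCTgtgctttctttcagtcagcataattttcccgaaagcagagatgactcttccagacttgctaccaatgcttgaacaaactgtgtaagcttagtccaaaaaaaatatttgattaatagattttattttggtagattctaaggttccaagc
The first matches begin 164, 250, 247 and 154 bases before the start in the order shown, and ACSL1 has 2. A match is a description of the letters in a short window and does not show that a receptor binds there.

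Fewer genes were lower with progestins, and by less, and the 15 described here are again those with the largest differences whose pools do not overlap, small RNAs passed over. HEY2, a transcriptional repressor downstream of Notch, had the largest such difference, -0.80 ± 0.066 (limma adjusted p = 1.61e-05). Its levels were 6.48, 6.52 and 6.67 with MPA, 7.02, 6.64 and 6.97 with PROG, 7.78, 7.90 and 7.86 with DHT and 7.07, 7.19 and 7.27 with DEX, and vehicle lay at 7.51 to 7.64. DHT was thus above vehicle and DEX below it, DHT exceeded DEX by 0.67 ± 0.094 (limma adjusted p = 0.0024), and PROG minus DEX missed the threshold (-0.30, limma adjusted p = 0.2). The receptor genes for 2 ovarian hormones followed. ESR1, the gene of estrogen receptor alpha, lay at 7.25 to 7.31 with MPA, 7.41 to 7.64 with PROG, 7.72 to 7.80 with DHT and 7.80 to 7.95 with DEX, under the vehicle levels of 7.97 to 8.16. The pools did not overlap and differed by -0.40 ± 0.043, although PROG against DHT alone missed the threshold (-0.22, limma adjusted p = 0.128). CCDC170, a coiled-coil protein gene, and RMND1, a gene for mitochondrial translation, lie near ESR1 on chromosome 6 and were lower by -0.40 ± 0.046 and -0.31 ± 0.032.

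PGR, the gene of the progesterone receptor itself, was at 7.63, 7.69 and 7.66 with MPA, 7.78, 7.69 and 7.68 with PROG, a mean of 8.05 ± 0.050 (SD, n = 3) with DHT, and 8.22, 8.06 and 8.02 with DEX. The vehicle arrays were highest, at 8.22 to 8.34. The difference between pools was -0.39 ± 0.040, and MPA minus PROG was -0.06 (95% interval -0.18 to 0.07). PGR was called in all 4 single comparisons, which held for only 3 lower probe sets (0.0202%), PGR, WT1 and MIR181B1. Among the 15 largest lower genes it was the 1 so called.

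Others of the 15 include genes of signalling and matrix proteins. BAMBI, a decoy receptor that dampens TGF-beta signals, was lower by -0.31 ± 0.039, with 8.59 to 8.82 for MPA, 8.92 to 8.96 for PROG, a mean of 9.03 ± 0.035 (SD, n = 3) for DHT and 9.19 to 9.26 for DEX. NPNT, a matrix ligand of integrins, was lower by -0.31 ± 0.028, and its DHT arrays, at 8.42 to 8.48, lay above all others, vehicle (8.23 to 8.29) included. ARRDC4, an arrestin-domain protein linked to glucose uptake, was lower by -0.30 ± 0.034 and C5AR2, a receptor for complement fragments, by -0.32 ± 0.044. VAV3, a signalling protein (-0.29 ± 0.045), FRY (-0.27 ± 0.039), NVL, a ribosome assembly factor (-0.26 ± 0.035), and the kinase PLK2 (-0.25 ± 0.039) complete the group with FGFR2 and HEG1. FGFR2, a fibroblast growth factor receptor (-0.28 ± 0.054), lost its call in a fit of 2 pools of 6 arrays (limma adjusted p = 0.0536). HEG1, a mucin-like membrane protein, had a call (-0.29 ± 0.061, limma adjusted p = 0.02) that ended without MPA 1, PROG 1, PROG 2, DHT 1 or DEX 2 (limma adjusted p 0.0503 to 0.0576). In 7 of the 15 the vehicle mean lay above all 4 compound means.

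**Figure D2:**
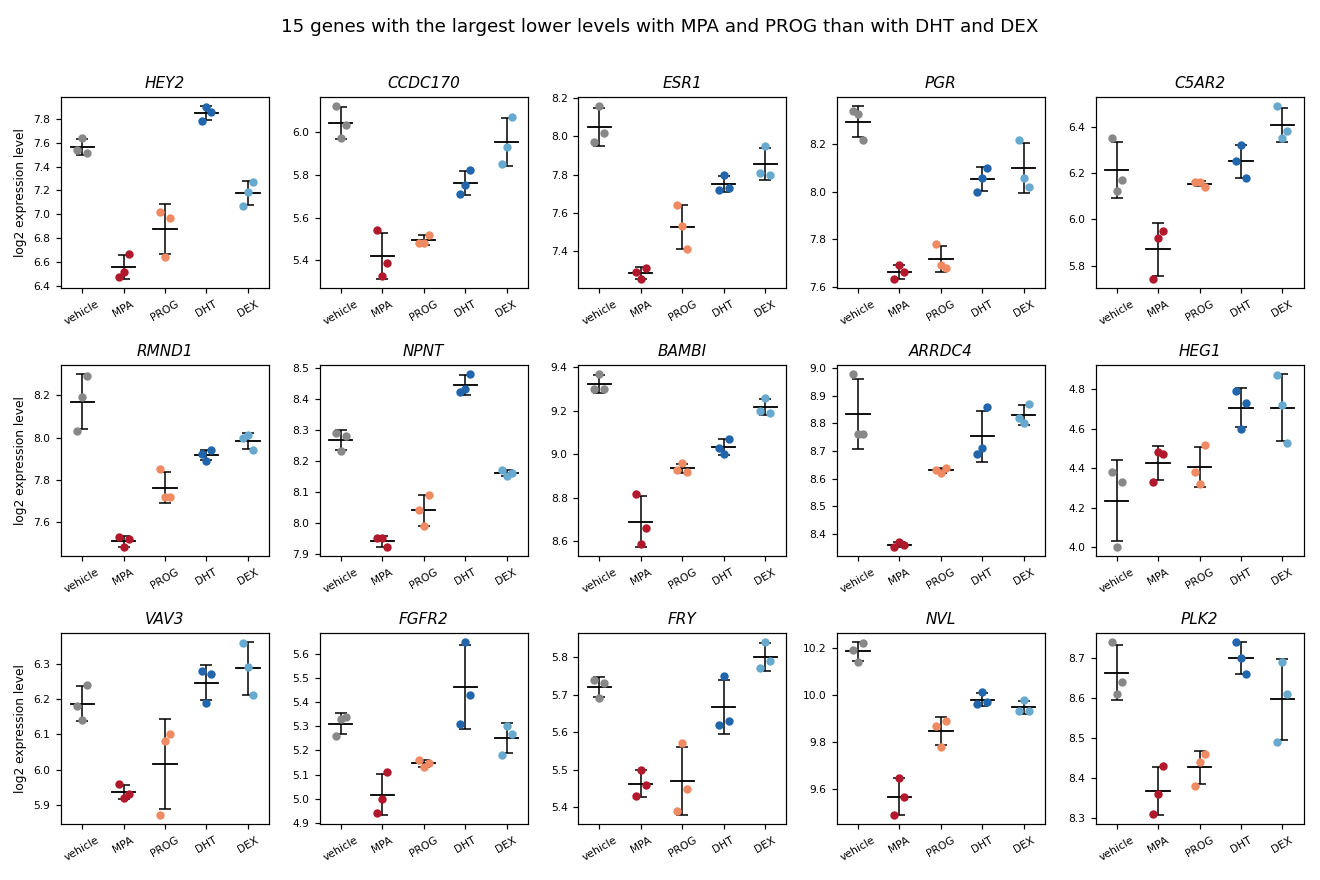
Log2 expression level on each array (dots; 3 per group), with group mean (horizontal bar) and SD (error bar), for the 15 genes with the largest lower levels in the MPA and PROG arrays; each panel has its own axis and vehicle is for reference. The genes were chosen among those whose pools do not overlap. PGR shows like levels for both progestins, HEY2 and NPNT show DHT above DEX, and for ESR1 and NVL all compound means lie under vehicle.

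Gene lists, written with earlier results of these data known, show which known programmes these genes belong to. Over all 14361 genes measured, 2.77% were called higher and 1.08% lower, and the median difference was -0.005. Of 24 measured progestin-induced genes 16 were called higher and 0 lower, with a median difference of 0.34. Without 1 array the count was 15 to 17. Beside ACSL1, EMP1 and FKBP5 they include THBS1, a matricellular protein (0.80 ± 0.036), the growth factor receptor EGFR (0.56 ± 0.031), the epithelial-mesenchymal repressor SNAI2 (0.54 ± 0.071) and BCL2L1, a survival gene (0.21 ± 0.030). The list draws on known progestin targets and is no independent evidence of its direction.

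The other steroid lists leaned the same way in the pooled difference, in which their own ligand is averaged with another steroid. Of 23 glucocorticoid-induced genes 12 were higher with progestins and 2 lower, with a median of 0.18, and 8 of the list were called in all 4 single comparisons. TIPARP, an ADP-ribosyltransferase (0.69 ± 0.043), ERRFI1, an inhibitor of EGFR (0.54 ± 0.035), and MT2A, a metallothionein (0.43 ± 0.031), are members. MT2A lay at 9.61 to 9.84 over the progestin arrays, 9.37 to 9.43 with DEX, 9.16 to 9.25 with DHT and 9.04 to 9.17 with vehicle. SGK1 was called (0.36 ± 0.036) but dim in all groups. Some members counted as higher were not below the progestins with DEX itself. MT1X had means of 10.06 with DEX, 10.03 with MPA, 10.0 with PROG and 9.61 with DHT. The DEX mean of DDIT4, 7.75, lay above its PROG mean of 7.70. In pools of 6 arrays neither MT1X nor DDIT4 was called (limma adjusted p = 0.45 and 0.161). Both lower members were CRISPLD2, a secreted protein (-0.36 ± 0.045), and EPGN. Of 14 androgen-induced genes 7 were higher and 1, C1orf116, lower, with a median of 0.12, and 3 were called in all 4 single comparisons. CLDN8, counted as higher, had means of 7.58 with DHT, 7.57 with MPA and 6.90 with PROG, and was not called in pools of 6 arrays (limma adjusted p = 0.74). The lower count was 2 without DEX 2 and 3 without DHT 2. With dim probe sets left out the medians became 0.35 for the glucocorticoid and 0.31 for the androgen list. The steroid lists share members such as FKBP5, so that their counts are not separate.

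Immediate early genes, which respond within minutes to hours without new protein synthesis, were higher in 9 of 24 cases and lower in 0 (median 0.15; 6 to 8 higher without 1 array). JUN lay at 7.15 to 7.42 with MPA, 7.04 to 7.15 with PROG and 6.58 to 6.85 with DHT and DEX (0.52 ± 0.053). Its partner FOSL2 (0.40 ± 0.034) and JUNB (0.32 ± 0.035) were separated as well. The value of FOS is uncertain: a second, dimmer probe set gave -0.05 (limma adjusted p = 0.78) and the call of the first ended without most single arrays. Of 23 Kruppel-like and BTB zinc finger genes 6 were higher and 1, ZBTB2, lower. KLF4 (0.32 ± 0.038) and KLF6 (0.36 ± 0.035) were separated, and KLF9, a target of several steroids, overlapped (0.50 ± 0.069), with DEX at 6.69 to 6.90 near PROG at 6.88 to 7.02 and DHT at 6.12 to 6.47. The call of ZBTB2 (-0.16 ± 0.039) was lost without any 1 of 9 arrays, all but DHT 1, DHT 3 and DEX 3.

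Growth factor receptors and their adaptors were higher in 7 of 23 cases and lower in 1, FGFR2 (2 lower without DEX 1). The higher members include EGFR, at 7.48 to 7.78 against 7.02 to 7.14, the adaptor GRB7 (0.35 ± 0.039) and SPRY4 (0.76 ± 0.055) and ERRFI1, both feedback inhibitors of receptor kinases. Of 19 growth factor ligands 3 were higher and 2 lower. Among the ligands of EGFR, EGF was higher (0.47 ± 0.035), as was HBEGF (0.32 ± 0.073, limma adjusted p = 0.0326, a call lost without any 1 of 8 arrays and in pools of 6), EPGN was lower (-0.42 ± 0.050), and EREG (0.15, dim) and BTC (-0.04) were not called. In the Notch pathway the receptor NOTCH2 (0.55 ± 0.031) and the ligand JAG1 (0.55 ± 0.083) were higher, and HEY2 and NRARP, an inhibitor of Notch (-0.26 ± 0.060), lower, of 23 measured. The NRARP call ended without any 1 of 9 arrays (limma adjusted p up to 0.0881), and without PROG 1 the higher members numbered 4. Of 15 apoptosis regulators 4 were higher, PMAIP1, BMF, BCL2L1 and MCL1, and 2 lower, BAK1 and BCL2. The higher count was 3 to 5 without 1 array, and the BMF call ended in pools of 6 (limma adjusted p = 0.136). The inhibitor BCL2 was lower (-0.28 ± 0.028), at 8.31 to 8.35 with MPA, 8.58 to 8.59 with PROG, 8.59 to 8.70 with DHT and 8.82 to 8.83 with DEX, and BAK1, a promoter of cell death, by -0.22 ± 0.039. The pioneer factor FOXA1, which opens chromatin for steroid receptors, was lower by -0.19 ± 0.035, at 9.75 to 9.97 against 9.99 to 10.08.

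The fatty acid list had 5 of 28 genes higher and 0 lower, ACOT6, ACSL1, the desaturase FADS1, the droplet protein PLIN3 and the elongase ELOVL5, and 3 higher without DEX 1, DEX 2, DHT 2 or PROG 3. The PLIN3 call (0.22, limma adjusted p = 0.0475) ended without MPA 1, DHT 1, DHT 2, DEX 1, DEX 2 or any 1 PROG array. In pools of 6 arrays neither PLIN3 nor FADS1 was called (limma adjusted p = 0.0665 and 0.133). Of the sterol synthesis genes 0 of 14 were called. Mitotic genes had 0 of 20 called, and G1-S and replication genes 3 of 27 higher, CCNE2 (0.31 ± 0.041), E2F1 and MCM10. The last count was 1 without DEX 1, DHT 1, DHT 2 or PROG 2 and 5 with dim probe sets left out. The MCM10 call (0.14, limma adjusted p = 0.0475) ended without any 1 array other than DHT 3. That of E2F1 ended without DEX 1, DHT 1, DHT 2 or PROG 2. Ribosomal protein genes (0 of 12) and housekeeping genes (0 of 6) had no limma calls. Their differences lay close to the median over all genes, with medians of -0.001 and -0.04.

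**Figure D3:**
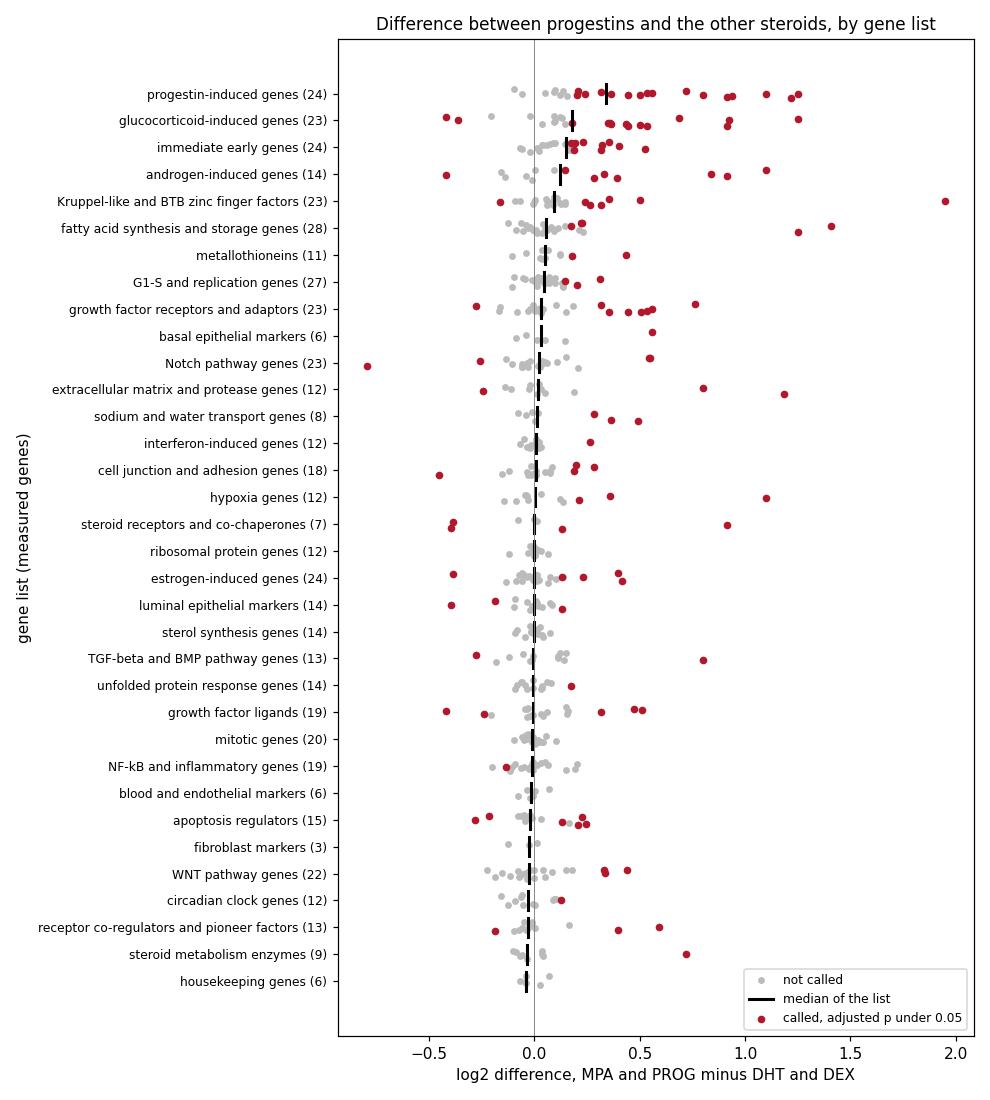
Difference between the progestin pool and the DHT and DEX pool (log2, horizontal axis) of each measured member (dots) of the gene lists (rows). Called members are red, the others grey, and the bar marks the median of the list. The progestin-induced list is shifted furthest to the right, with 16 of 24 members called higher, while sterol synthesis and mitotic genes have 0 called.

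The single pairs were compared at the same dose and time, with p adjusted over the 6 pairs and all probe sets together. The pairs share arrays and are not independent. MPA differed from DHT at 396 probe sets (2.67%) and from DEX at 427 (2.88%). PROG differed from DHT at 237 (1.6%) and from DEX at 209 (1.41%). In all 4 pairs, in 1 direction, 104 probe sets were called (0.701%). Of the 402 probe sets higher in the pooled comparison, 101 (0.681% of all tested) were among these and 75 were called in 0 of the 4. Both MPA pairs but neither PROG pair were called for 56 of the 402, and both PROG pairs but neither MPA pair for 5. Both MPA and PROG means lay beyond both DHT and DEX means for 386 of the 402 higher and 147 of the 157 lower probe sets.

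MPA and PROG, which differ by a methyl and an acetoxy group, differed from each other at 86 probe sets (0.579%), 60 higher with MPA (0.404%) and 26 lower (0.175%). Within the 402 higher probe sets the MPA mean exceeded the PROG mean in 336, and 47 of the 402 were called between the 2 progestins, 46 with MPA above and 1, HS3ST6, with PROG above. Within the 157 lower probe sets MPA was further from DHT and DEX in 129, and 16 were called. UNC5B stood 0.83 ± 0.087 higher with MPA than with PROG (limma adjusted p = 2.83e-04), SGPP2 0.66 ± 0.116 (limma adjusted p = 0.0122), PLLP 0.51 (limma adjusted p = 0.00612), GREB1L 0.47 and ACSL1 0.36 ± 0.050. TIPARP was higher with MPA by 0.48 (limma adjusted p = 0.00118) and LRIG1, an inhibitor of EGFR chosen after its values were seen, by 0.39 (limma adjusted p = 8.20e-04).

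For other genes the progestins could not be told apart at this precision. ACOT6 differed by -0.03 between MPA and PROG (95% interval -0.24 to 0.18), EMP1 by 0.06 (-0.13 to 0.24), LRRC31 by -0.10 (-0.29 to 0.09) and HILPDA by -0.06 (-0.20 to 0.08), and ZBTB7C by 0.22 (-0.04 to 0.49). HS3ST6, a heparan sulfate sulfotransferase gene, was at 5.84 to 5.97 with MPA and 6.27 to 6.55 with PROG, above 5.27 to 5.63 with DHT and DEX. For some pooled calls PROG lay among or near the DHT and DEX arrays. ATP13A4, a P-type ATPase, lay at 6.14 to 6.33 with MPA but at 5.14 to 5.45 with PROG, among its DHT and DEX arrays at 5.09 to 5.46. RANBP3L, a RAN-binding protein, was at 5.74 to 6.05 with MPA, 4.25 to 4.59 with PROG, 4.68 to 4.94 with DHT and 3.84 to 3.94 with DEX. AMIGO2, an adhesion protein, was at 6.76 to 7.25 with MPA, 7.48 to 7.60 with PROG and 7.60 to 7.87 with DHT and DEX. A fit of 2 pools of 6 arrays counts such gaps within a pool as error, and all 3 calls ended there (limma adjusted p = 0.233, 0.268 and 0.0882). HS3ST6, ATP13A4 and RANBP3L were chosen after their values were seen.

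**Figure D4:**
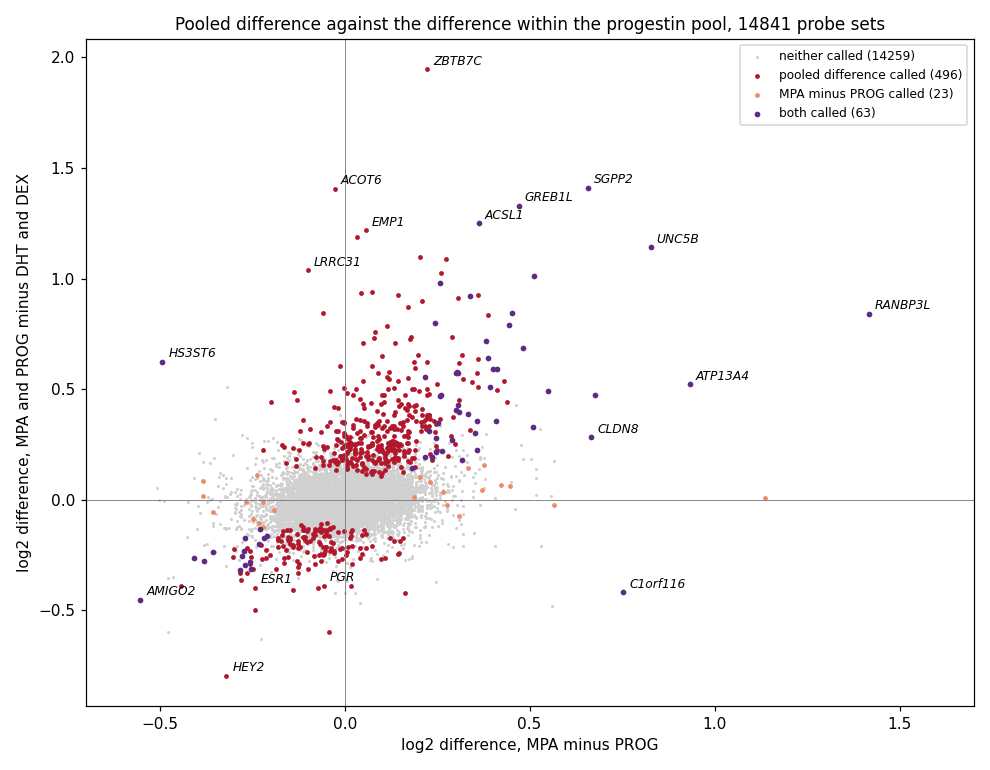
Difference between the progestin pool and the DHT and DEX pool (vertical axis, log2) against MPA minus PROG (horizontal axis, log2) for all 14841 probe sets; colours mark probe sets called in the pooled comparison, between the progestins, in both or in neither. Of the 402 probe sets called higher, 336 lie right of 0, with RANBP3L, ATP13A4, UNC5B and SGPP2 among the furthest, and HS3ST6 lies left of 0.

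DHT and DEX formed no uniform pool. They differed at 134 probe sets (0.903%), 51 higher with DHT (0.344%) and 83 higher with DEX (0.559%), and in 79 of these the progestin mean lay between the DHT and DEX means. Of these 79, 6 were called in the pooled comparison. C1orf116, known as an androgen-regulated gene, was at 10.14 to 10.27 with DHT, 9.02 to 9.17 with MPA, 8.22 to 8.37 with PROG, 7.97 to 8.07 with DEX and 6.71 to 6.74 with vehicle. Its pooled difference of -0.42 ± 0.042 therefore stands beside a DHT minus DEX difference of 2.18 ± 0.060 (limma adjusted p = 1.92e-08). CLDN8, a tight junction protein, had equal MPA and DHT means (7.57 and 7.58), with PROG at 6.83 to 6.97, DEX at 6.23 to 6.47 and vehicle at 5.38 to 5.68. AQP3, a water and glycerol channel, was at 7.36 to 7.48 with MPA, 6.83 to 6.90 with PROG, 6.85 to 7.24 with DHT and 6.12 to 6.43 with DEX.

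Other genes were highest with DEX. PER1, a repressor of the circadian clock, was at 7.90 to 8.16 with DEX, 7.73 to 7.85 with MPA, 7.30 to 7.56 with PROG, 6.78 to 7.08 with DHT and 5.69 to 6.04 with vehicle. Its pooled difference was 0.10 ± 0.066 (limma adjusted p = 0.584), while DHT minus DEX was -1.08 ± 0.093. EPGN, a ligand of EGFR, was at 7.25 to 7.43 with DEX and at 6.24 to 6.57 with the other 3 compounds, and its progestin arrays overlapped its DHT arrays. OLR1, a scavenger receptor for oxidised lipoprotein, was in turn high with DHT, at 5.92 to 6.02, against 5.11 to 5.35 with DEX and 4.85 to 5.12 with the progestins (-0.60 ± 0.058). In the fit of 2 pools of 6 arrays the calls of C1orf116, CLDN8, AQP3, EPGN and OLR1 ended (limma adjusted p 0.0624 to 0.766). BCL6, a transcriptional repressor, and DUSP1, a MAP kinase phosphatase, both higher with DEX than DHT (by 0.48 and 0.51), had pooled differences of 0.14 and 0.10 that were not called (BCL6 was called without DHT 2, with all 15 arrays in the fit and with trend and robust eBayes, limma adjusted p 0.0306 to 0.0499). CROT, which moves medium-chain fatty acids out of peroxisomes, had the opposite order. It was at 8.41 to 8.51 with DHT, 8.25 to 8.34 with MPA, 7.97 to 8.09 with PROG and 7.85 to 7.95 with DEX.

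**Figure D5:**
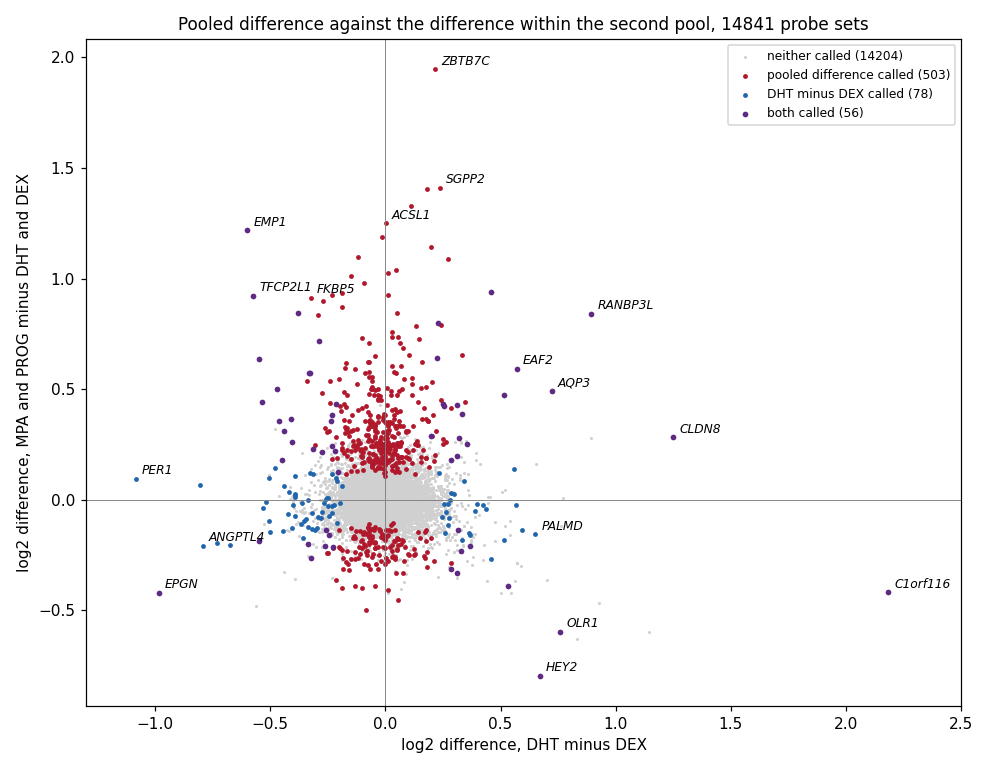
Difference between the progestin pool and the DHT and DEX pool (vertical axis, log2) against DHT minus DEX (horizontal axis, log2) for all 14841 probe sets; colours mark probe sets called in the pooled comparison, between DHT and DEX, in both or in neither. ZBTB7C and ACSL1 lie high with small differences between DHT and DEX, C1orf116 (2.18) and CLDN8 (1.25) lie far right, and PER1 (-1.08) and EPGN (-0.98) far left.

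The pool means were also set beside the vehicle mean. In 291 of the 402 (72.4%) the vehicle mean lay below both pool means, in 108 between them and in 3 above both. In 65 of the 157 lower probe sets the vehicle mean lay above both pool means, in 79 between them and in 13 below both. FKBP5, HSD11B2 and TMEM63C are of the first kind, with DHT and DEX above vehicle and the progestins higher still. TMEM63C lay at 8.07 to 8.17 with vehicle, 8.52 to 8.69 with DHT and DEX, and 9.40 to 9.76 with the progestins. ACKR3, a scavenging chemokine receptor chosen after its values were seen, lies between. It was at 5.83 to 6.22 with the progestins, 5.22 to 5.50 with vehicle and 4.89 to 5.27 with DHT and DEX (0.87 ± 0.065). These positions are descriptions, since vehicle entered no test here.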

How the data were processed

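RNA of ZR-75-1 cells was hybridised, after amplification and biotin labelling, to 15 Affymetrix arrays, per the labels' protocols. Groups and replicate numbers come from the sample titles, 3 arrays to each of 5 groups. The values deposited by the authors are log2 expression levels. Partek and RMA appear in the submitters' processing notes, with version, settings and genome build not given in the sources used here. The RMA method brings arrays to like distributions, which hides shifts shared by most genes, and can compress differences at dim probe sets. The platform annotation, with RefSeq names, gives 14841 probe sets 1 gene symbol and leaves 20037 unnamed here.

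No further normalization or filter was applied. limma 3.58.1 in R 4.3.3 (lmFit, eBayes) fitted 4 group means over the 12 compound arrays at every named probe set, with 8 residual and 3.662 prior degrees of freedom. The pooled contrast was 2-sided, with Benjamini-Hochberg adjustment over all probe sets and a threshold of 0.05. The 6 single pairs were adjusted together, over pairs and probe sets. Adjusted p-values and 95% intervals are limma's throughout. The number of arrays limits the precision, and the median SE was 0.0456. Of a gene's several probe sets the one with the highest mean was used for lists and names. The code was tested on simulated data.

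Genes named are the 15 largest called differences in each direction with pools that do not overlap and no small RNAs, up to 4 called members of each gene list, a few fixed steroid-response genes, and genes said to be chosen after their values were seen. Further list members, named beside a count, were also chosen after their values were seen. The members compared and the lists were chosen with earlier results of these data known. Lists are described by counts and medians, without a test. Alternatives were a replicate block, all 15 arrays, pools of 6, trend and robust eBayes, array weights, a filter on dim probe sets, 1 probe set per gene, quantile normalization, median centring, a threshold of 0.01, adjustment within each pair, and leaving out each array.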

Additional observations from a re-analysis of the deposited data

How the results depend on the processing

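Of 125 genes followed singly under the alternatives, which leave out some list members such as ZBTB2, none that was called changed direction, and 14 lost the call without some array, 22 in pools of 6 arrays and 20 at a threshold of 0.01. In pools of 6 arrays, a fit that counts the gap between the compounds of a pool as error, 71 probe sets were lower. At a threshold of 0.01, the pooled calls numbered 324, with 266 higher and 58 lower, and 63 held in all 4 single pairs; the pairs gave 229 (MPA and DHT), 227 (MPA and DEX), 127 (PROG and DHT), 110 (PROG and DEX), 30 (MPA and PROG) and 56 (DHT and DEX). MPA and PROG differed at 148 probe sets with trend and robust eBayes and at 32 with adjustment within the pair, and DHT and DEX at 75 with the latter. Leaving out 1 array gave 53 to 84 for MPA and PROG (54 without PROG 1, 53 without PROG 3) and 79 to 140 for DHT and DEX (79 without DHT 1 or DHT 2, 89 without DEX 3). It gave 431 to 510 probe sets called in the pooled comparison and 76 to 93 called in all 4 pairs. The same replicate number did not mark arrays that deviate together: correlations of deviations were -0.039 to 0.067 for the same number and -0.088 to 0.049 for different ones. With the replicate number as a block, the pooled calls numbered 497, with 367 higher and 130 lower. Every other count of probe sets stayed within 1.5 times its main value under the alternatives. The precision is limited by 3 arrays a group, and for dim probe sets by signal near background.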

Other observations

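MicroRNA genes outside the naming rule, chosen after their values were seen, also differed. Arrays of this kind measure the gene's primary or precursor transcript along with any mature RNA, and the mature sequences from RefSeq (GRCh38.p14) are shown, with the seed, bases 2 to 8, in capitals, because the seed is what pairs with target transcripts.
hsa-miR-21-5p: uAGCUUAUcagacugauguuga
hsa-miR-29c-3p: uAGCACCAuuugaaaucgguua
hsa-miR-181b-5p: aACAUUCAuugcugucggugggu
The 3 seeds differ. The stretches lie at chr17:59841273-59841294 on the plus strand, chr1:207801865-207801886 on the minus strand and chr1:198858925-198858947 on the minus strand. MIR21, known for its high level in many tumours, was at 8.82 to 9.08 with MPA, 8.59 to 8.70 with PROG, 8.38 to 8.51 with DEX, 7.71 to 8.04 with DHT and 7.45 to 7.57 with vehicle (difference between pools 0.64 ± 0.062, limma adjusted p = 6.47e-05). MIR29C was at 8.40 to 8.69 with the progestins and 7.72 to 8.19 with DHT and DEX (0.54 ± 0.073, limma adjusted p = 8.10e-04). MIR181B1 was lower with progestins, at 7.98 to 8.26 against 8.42 to 8.60, with vehicle at 8.51 to 8.82 (-0.41 ± 0.049, limma adjusted p = 3.10e-04).

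Further genes with separated pools, also chosen after their values were seen, encode signalling proteins. JAK2, the kinase that signals for prolactin and cytokine receptors, was at 7.77 to 8.27 with the progestins and 7.22 to 7.42 with DHT and DEX, against 7.06 to 7.10 with vehicle (0.63 ± 0.075). LPAR3, a receptor for lysophosphatidic acid, was higher by 0.73 ± 0.085 and PCDH7, a protocadherin, by 0.90 ± 0.046. MXD1, a repressor that binds DNA with MAX, was at 9.21 to 9.38 against 8.58 to 8.69 (0.65 ± 0.030). Of 22 WNT pathway genes 3 were higher and 0 lower, the receptors FZD1 (0.33 ± 0.044) and FZD8 and the transcription factor LEF1 (0.44 ± 0.048), and 1 lower without DHT 1. Of 24 estrogen-induced genes 4 were higher, GREB1, AGR3, AGR2 and FOS, and 1, PGR, lower. The first count was 2 without DEX 1, DEX 2, DEX 3, DHT 1, MPA 3, PROG 1 or PROG 2, and the second 2 without DHT 1.

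THRSP, a regulator of lipogenesis in the fatty acid list chosen after its values were seen, split both pools. It was at 5.44, 6.24 and 6.54 with MPA and 5.82 to 5.92 with DHT, against 4.87 to 5.07 with PROG, 4.99 to 5.25 with DEX and 4.99 to 5.10 with vehicle. MPA exceeded PROG by 1.14 ± 0.205 (limma adjusted p = 0.0138), while the pooled difference was 0.01 ± 0.145 and DHT minus DEX missed the threshold (0.77, limma adjusted p = 0.109).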
